A study of Mus musculus with 12 samples.

Results

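Long intergenic noncoding RNAs (lincRNAs) are spliced, usually polyadenylated transcripts that lie between protein-coding genes and carry no long reading frame. The probes described here are those that the array names by a genomic interval and a strand (chrN:start-end followed by _F or _R) instead of by a gene. The array held 4449 such probes among 56605 that were not controls. Of these, 174 lay on chromosome X and were left out, and 4275 were autosomal. A probe was taken as a member when the scanner software called it well above background on at least 2 of the 12 arrays, which left 2306 members, and 2297 were analysed after 9 with an outlier flag were set aside. They named 2142 stranded intervals on 19 chromosomes, and 2007 of these intervals were read by 1 member and 135 by up to 4. All 2297 probes had different sequences of 60 bases, and 1130 read the F strand and 1167 the R strand. Coordinates are those of the file headers, in the mouse build mm9.

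The arrays measured RNA from ear skin of C57BL/6J mice, pooled from 6 to 8 animals per sample, with 1 untreated pool for each of 5 genotypes: WT, Tlr7-/-, Tlr9-/-, Tlr7-/-Tlr9-/- and Card14-/-. The treated pools of the same genotypes were taken 4 h after one application to both ears of 62.5 mg of cream with 5% imiquimod. WT, Tlr7-/- and Tlr9-/- had 1 treated array each, and Tlr7-/-Tlr9-/- and Card14-/- had 2. The untreated pools (0 h) received no cream base, so imiquimod, cream, handling and time cannot be told apart.

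Imiquimod is an agonist of the endosomal RNA sensor TLR7, which signals through MyD88 to NF-kB and interferon regulatory factors. TLR9 is the related sensor of DNA, and CARD14 is a keratinocyte scaffold protein that activates NF-kB. LincRNAs are expressed at lower levels and in fewer cell types than messenger RNAs, and some act on the genes next to them while others work as scaffolds, decoys or precursors of small RNAs. The labelling was primed with oligo-dT, which favours polyadenylated RNA.

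Skin markers were high, as the labels imply: the keratinocyte genes had a median level of 18.1 on the log2 intensity scale and the fibroblast genes 16.5, whereas the neuron genes lay between 4.86 and 7.40. Muscle (median 15.8) and cartilage (untreated 12.27 to 13.01) markers were also high, as the whole ear was used. Both Tlr7 probes were lower in each Tlr7-deficient pool (3.83 to 5.77) than in each other pool (6.75 to 8.12). The Card14 probe read 9.65 and 9.89 in Card14-/- against 10.8 to 11.6 elsewhere, and the Tlr9 probe (10.95 to 11.39) did not separate the genotypes. The treated arrays were dimmer, with a 75th percentile of raw intensity of 527 to 779 against 1070 to 1236 on the untreated arrays. All 5 untreated arrays and the treated WT, Tlr7-/- and Tlr9-/- arrays shared a slide, and the 4 other treated arrays lay on another. Array brightness and position within a slide therefore cannot be told apart from treatment. The slide can be in WT, Tlr7-/- and Tlr9-/-, whose arrays shared one, and with these genotypes alone 409 members rose and 224 fell. In the same fit 4842 of all 37125 probes rose and 5267 fell. Whether repeat arrays came from separate pools was not given, so their spread may be technical.

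The sequences below are of the members on which the results turn, shown because the size and direction of the response went with them. All are written 5′ to 3′ in the sense of the RNA that the probe reads. The first set holds the largest rise and 2 other large ones, with the longest stretch of alternating G and A in capitals.
chr14:65720392-65769859_R: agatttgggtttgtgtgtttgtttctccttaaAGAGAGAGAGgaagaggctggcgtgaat
chr4:33375464-33377138_R: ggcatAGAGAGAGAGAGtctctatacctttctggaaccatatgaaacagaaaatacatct
chr3:106858397-106896812_R: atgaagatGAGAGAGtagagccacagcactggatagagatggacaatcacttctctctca
The second set shows intervals read on both strands by probes that overlap, so that 1 probe holds the GA stretch and its partner the complementary stretch of alternating C and T (capitals).
chr12:77544397-77564122_F: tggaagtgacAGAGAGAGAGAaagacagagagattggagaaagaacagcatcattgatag
chr12:77544397-77564122_R: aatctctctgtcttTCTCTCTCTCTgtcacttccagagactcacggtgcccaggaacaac
chr17:88225376-88238756_F: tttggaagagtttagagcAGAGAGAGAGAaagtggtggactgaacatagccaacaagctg
chr17:88225376-88238756_R: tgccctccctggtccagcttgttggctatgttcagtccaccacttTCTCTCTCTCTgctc
The third set has a long run of purines in any order (capitals), the feature named for flagging probes that may bind other transcripts.
chr15:60656586-60685333_R: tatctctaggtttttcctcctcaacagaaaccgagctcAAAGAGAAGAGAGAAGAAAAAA
chr5:125205454-125209470_F: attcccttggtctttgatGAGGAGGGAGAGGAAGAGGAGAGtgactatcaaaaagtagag
The last set has neither feature and holds members that the text returns to: the largest such rise, a rise next to Socs3, the clearest fall and the member at Rnf213.
chr8:124355710-124401160_R: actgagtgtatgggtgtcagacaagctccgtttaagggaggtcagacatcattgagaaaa
chr11:117835849-117842574_R: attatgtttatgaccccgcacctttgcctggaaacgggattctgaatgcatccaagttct
chr8:19783770-19784669_R: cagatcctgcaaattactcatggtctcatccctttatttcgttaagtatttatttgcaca
chr11:119254413-119296960_F: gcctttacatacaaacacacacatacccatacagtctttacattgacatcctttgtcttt

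LincRNA probes were dim. Their median level was 5.99 against 8.15 for the 34828 other probes kept, and 53.9% of autosomal lincRNA probes passed the signal rule against 66.9% of other probes. Of the autosomal lincRNA probes, 1538 were above background on no array and 431 on 1 array, just outside the rule, while 132 were so on exactly 2 arrays, just inside it. Among the members analysed, 1525 were above background on all 12 arrays and 772 on 2 to 11. The intervals were long relative to a probe, with a median length of 11.2 kb and a range from 0.067 to 534 kb. The name "intergenic" did not hold for all: 232 members lay in an interval with a probe of a named gene on the same strand and 165 in one with such a probe only on the other strand, while 1900 lay in an interval with neither.

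More lincRNA probes rose than fell after treatment. The average response was the mean of the 5 genotypes' differences between imiquimod and untreated, called at an adjusted p under 0.05 in limma over all 37125 probes kept. By this measure 358 members rose, or 15.6%, where 10.6% of all probes did, and 156 members fell, or 6.79%, where 13.6% of all probes did. The median response of the members was 0.07 on the log2 scale, with the middle 80% between -0.53 and 0.85, against a median of -0.07 over all probes. A rise of at least 2-fold was called for 138 members and a fall of that size for 36, against 1162 and 600 of all 37125 probes. Of the 1525 members measured on all 12 arrays, 289 rose and 96 fell, against 3429 and 4257 of all 30355 probes measured so. Every imiquimod array lay above every untreated array for 263 members (8.7% of all probes did so), and below for 89 (11.8% of all probes). The balance depended on the scaling: with each array set to its 75th percentile instead of quantile normalization, 455 members rose and 99 fell, with a median of 0.21 for members and 0.01 for all probes. Under that scaling 4944 of all probes rose and 4113 fell. The Tlr9-/- pair weighed most on the counts, which were 55 and 18 without it, 149 and 47 without Tlr7-/-, and 219 and 67 without WT. Of 71 called members named by the rules for this report, 12 kept their call without Tlr9-/-, 38 without Tlr7-/-, 57 without WT and 65 without each of the other 2 genotypes in turn, and 0 changed sign.

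The largest rises were concentrated in probes with GA repeats. Of the 25 members with at least 8 bases of alternating G and A, 25 rose, with a median response of 2.87 and a range from 1.00 to 3.75. Of these, 18 were above background on all 12 arrays, and in 24 of the 25 every imiquimod array lay above every untreated array. This length was chosen after the values were seen. Among the other probes of the array, 135 of 186 with such a stretch rose and 2 fell, with a median of 2.05. The response followed the length of the stretch. With up to 5 bases, 312 of 2187 members rose and the median was 0.06. At 6 bases 14 of 66 rose (median 0.27), at 7 bases 7 of 19 (0.42), at 8 bases 13 of 13 (2.83) and at 9 or more 12 of 12 (2.93).

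The complementary repeat did not show this step. At 7 bases of alternating C and T 9 of 35 members rose, and at 8 bases 2 of 11. The larger of those 2 rises, chr3:106858397-106896812_R (3.23), holds 7 bases of alternating G and A as well. Of 24 members with at least 8 bases of alternating C and T, 2 rose and 3 fell, where 10.6% of all probes rose and 13.6% fell, and the median was -0.19. Of the 13 with 9 or more bases, 0 rose and 3 fell, with a median of -0.53. The 131 other probes with such a stretch of at least 8 bases had a median of -0.23, with 5 rising and 28 falling.

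**Figure D1:**
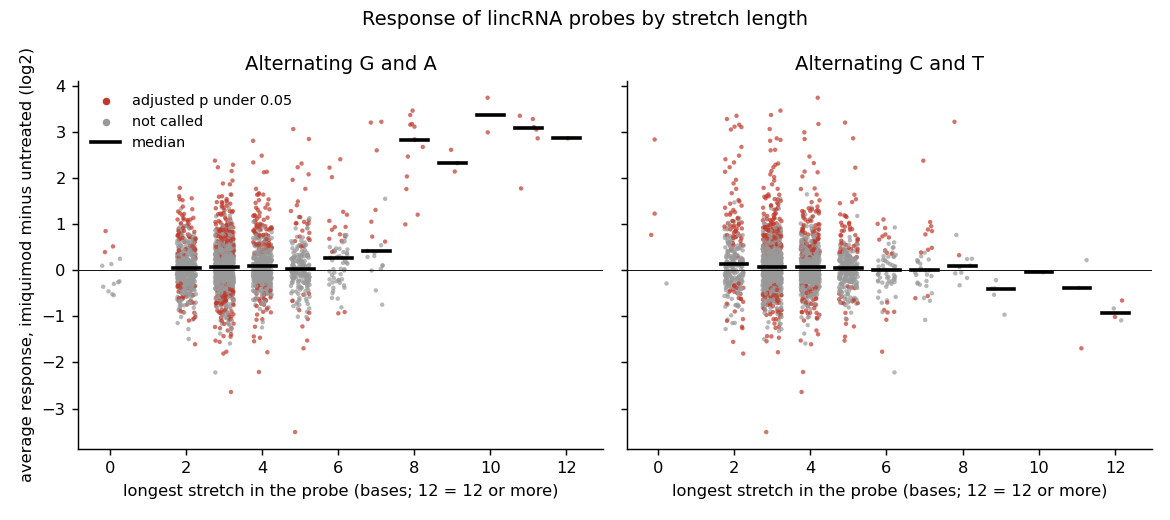
Each point is 1 of the 2297 members, placed by the longest stretch of alternating G and A (left) or C and T (right) in its probe, in bases, and by its average response (log2, imiquimod minus untreated). Black bars are medians and red points were called at an adjusted p under 0.05. The medians on the left step from 0.42 at 7 bases to 2.83 at 8, and no such step is seen on the right.

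Purine runs without strict alternation also went with rises. Of the 11 members with a run of at least 20 A or G, 8 rose and 0 fell, with a median of 2.24, and 94 of the 123 other probes with such a run rose (median 1.04). The 9 of these members without 8 bases of alternation had a median of 1.77, and 6 rose. Runs of 15 to 19 purines gave 17 rises among 23 members (median 1.28) and runs of 12 to 14 gave 25 among 63 (median 0.58). Of the 13 members with at least 20 C or T in a row, 0 rose and 2 fell, with a median of -0.41. In all, 183 members, 7.97% of those analysed, held 6 or more bases of alternating G and A or a purine run of 12 or more. They made up 21.2% of all rises, 40.6% of rises of at least 1 on the log2 scale, 35 of the 41 rises of at least 2, and 24 of the 25 largest. Among the falls their share was 3.21%. Without them 282 of 2114 members rose and 151 fell, where 9.40% and 14.1% of all 34444 probes without these features did. Of 2642 words of 6 bases held by at least 20 members, GAGAGA had the highest median response (0.76 over 70 members) and AGAGAG the next (0.62 over 84), followed by CCGCCC (0.57 over 37). The other probes gave another order for these words, with medians of 0.09, 0.13 and 0.30. The responses also increased with GC content, from a median of -0.12 in the 222 members with at most 35% GC to 0.35 in the 72 members above 65%, of which 29 rose. Other probes showed the same order, from -0.16 to 0.30.

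The chr14:65720392-65769859_R member, which has 10 bases of alternation, gave the largest rise. Its untreated levels were 8.17, 9.45, 9.75, 9.36 and 9.44 in WT, Tlr7-/-, Tlr9-/-, Tlr7-/-Tlr9-/- and Card14-/-. The treated levels were 14.56, 13.22 and 14.23 in WT, Tlr7-/- and Tlr9-/-, and 11.34 to 11.51 on the 4 treated arrays of the other slide. The groups did not overlap, and the average response was 3.75 ± 0.67 (SE; limma adjusted p 0.0177), although the call was lost without Tlr7-/- and without Tlr9-/-. Extl3, the nearest gene with a probe, on the same strand, had a response of -0.19. The chr4:33375464-33377138_R member, with 12 bases, went from 9.52 to 10.82 in the untreated arrays to 12.40 to 14.28 in the treated ones (2.87 ± 0.44, adjusted p 0.0134). In chr3:106858397-106896812_R, with only 7 bases, the response was 3.23 ± 0.68 (adjusted p 0.0249). This probe also holds 8 bases of alternating C and T near its end. Both long purine runs printed above rose by similar amounts: chr15:60656586-60685333_R, with a run of 22, from 4.26 to 5.18 untreated to 6.93 to 8.86 treated (3.21 ± 0.44), and chr5:125205454-125209470_F, with a run of 23, from 6.33 to 7.17 to 8.61 to 11.51 (3.07 ± 0.54). Those groups did not overlap either.

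Members with GA repeats also rose beside imprinted lncRNAs whose own probes were not called. The Dlk1-Meg3 cluster on chromosome 12 expresses Meg3, Rian and Mirg from the maternal chromosome. The member chr12:110896603-110940553_F, whose interval holds Rian, has 8 bases of alternation and was below background on all 5 untreated arrays (3.30 to 4.31) but above it on all 7 treated ones (5.66 to 8.40), a rise of at least 9.15-fold. Here and below such a fold is a bound set against the lowest level measured above background, and it depends on the background correction. With normexp background correction the response of this member was 1.43 on the log2 scale, and it was 1.98 in the authors' deposited table, both below that bound. The Rian probe itself had a response of -0.06. The member chr12:110738120-110769295_F, 32.6 kb from Meg3, also has 8 bases and rose at least 8.46-fold (log2 response 1.40 with normexp and 1.98 in the authors' deposited table), where the Meg3 probe nearest to it had -0.94 (adjusted p 0.0578). Other members of the cluster without 8 bases of alternation gave -1.26, -0.07, 0.38 and 0.46, of which the fall of chr12:110909258-110913909_F was called (adjusted p 0.0172) on levels near background and was -0.18 with normexp.

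The GA response was ordered by genotype and also by array brightness. The median over the 25 members was 4.61 in WT, 3.33 in Tlr9-/-, 2.49 in Tlr7-/-, 2.03 in Tlr7-/-Tlr9-/- and 1.46 in Card14-/-. The 186 other probes gave the same order, with medians of 3.22, 2.49, 1.90, 1.25 and 0.96. The 75th percentile of raw intensity of the treated samples went the opposite way, at 527, 569, 616, 690 and 755 in the same order of genotypes, and the 3 larger responses came from the slide that also held the untreated arrays. Within that slide the order WT, Tlr9-/-, Tlr7-/- was also that of rising brightness, and the part of brightness in it was not tested. The rise was present before normalization, where the median log2 intensity of the 25 probes was 7.31 to 7.70 untreated and 8.34 to 10.55 treated, while that of the 2114 members without these features fell from 6.29 to 6.46 to 5.66 to 5.89. Over the alternative settings the median of the 25 stayed between 2.28 and 3.61, but only 3 kept their call without Tlr9-/- and 12 without Tlr7-/-.

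**Figure D2:**
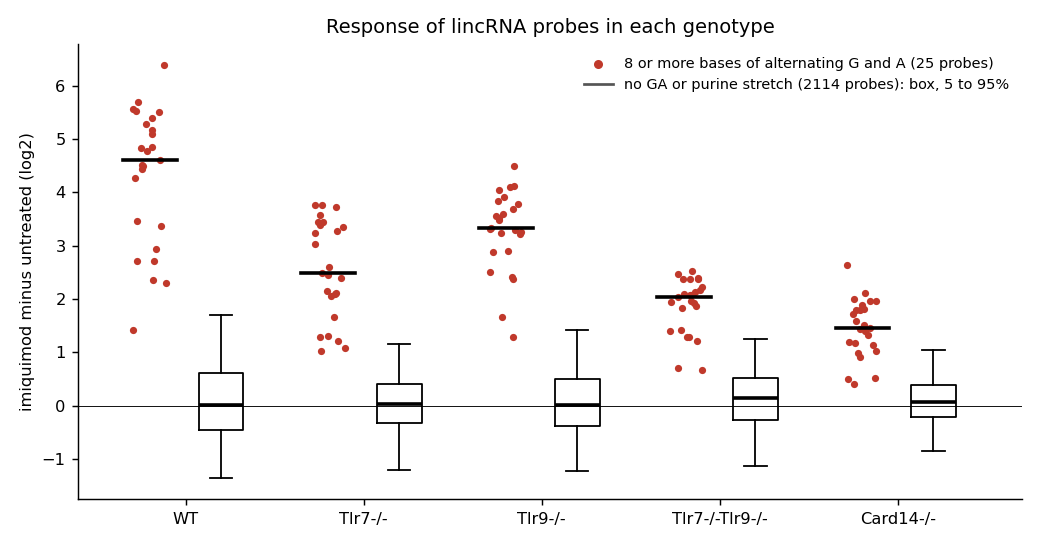
The response in each genotype (log2, imiquimod minus untreated) is shown for the 25 members with at least 8 bases of alternating G and A (red points, median as a black bar) and for the 2114 members without a GA or purine stretch (box for the quartiles, whiskers from 5 to 95%). The red medians go from 4.61 in WT to 1.46 in Card14-/-, and all red points are above 0 in every genotype.

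Opposite strands of an interval gave a comparison within one place. In 324 intervals both strands had a member. The F and R responses had a correlation across intervals of 0.06, or 0.20 over the 272 pairs in which neither probe held a GA or purine stretch. These intervals share their arrays and are not replicates. Both strands rose in 12, both fell in 3, the calls were opposite in 7, only 1 strand was called in 101 and neither in 201, and the median absolute difference was 0.39. The 135 intervals with at least 2 members on one strand had a correlation of 0.35 between the 2 brightest, with both rising in 10, both falling in 2 and opposite calls in 1. Over the 116 of these pairs without a GA or purine stretch it was 0.34. The sets also differed in brightness, as paired probes differed in level by a median of 2.60 between strands and 1.48 within one. Each of these correlations is a description.

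The 2 intervals printed on both strands show how far the strands could part. The probes of chr12:77544397-77564122 overlap by 35 bases (chr12:77553108-77553167 for F and chr12:77553083-77553142 for R). The F probe went from 8.25 to 9.58 untreated to 10.90 to 13.81 treated (3.29 ± 0.54, adjusted p 0.0151), while the R probe went from 7.46 to 8.43 to 5.36 to 7.47 (-1.69 ± 0.45, adjusted p 0.0431). The R probe fell by 3.07, 1.95 and 2.43 in WT, Tlr7-/- and Tlr9-/-, had 0.00 in Tlr7-/-Tlr9-/- and -1.01 in Card14-/-, and lost its call without WT, Tlr7-/-, Tlr9-/- or Card14-/- and without the signal filter. The probes of chr17:88225376-88238756 overlap by 46 bases. Its F probe rose from 10.03 to 11.36 to 12.91 to 14.92 (3.11 ± 0.47, adjusted p 0.0131), whereas the R probe, at 9.93 to 10.57 untreated and 9.68 to 10.74 treated, gave 0.22 ± 0.17 (adjusted p 0.361) with overlapping groups. The pattern recurred in chr4:98943050-98959998, where the R probe with 11 bases of GA gave 3.06 and the F probe that overlaps it by 35 bases gave 0.63 (adjusted p 0.492).

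Some intervals without these features rose on both strands. They were chr8:125031410-125075960 near the replication licensing gene Cdt1 (1.05 on F and 1.14 on R), chr7:16584852-16657252 (1.33 and 1.03), chr5:22801058-22939737 near the chromatin regulator gene Kmt2e (0.89 and 1.02) and chr14:115423660-115463160 (1.48 and 0.65), each with both strands called. The interval chr14:21029450-21049451 went apart, with 0.77 on F and -1.39 on R, both called. Its R probe was near background, with a mean level of 3.47 where the lowest level above background was 3.63 to 4.38 per array. The response of that probe was -0.06 in Card14-/-. All 5 intervals were picked after their values were seen.

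**Figure D3:**
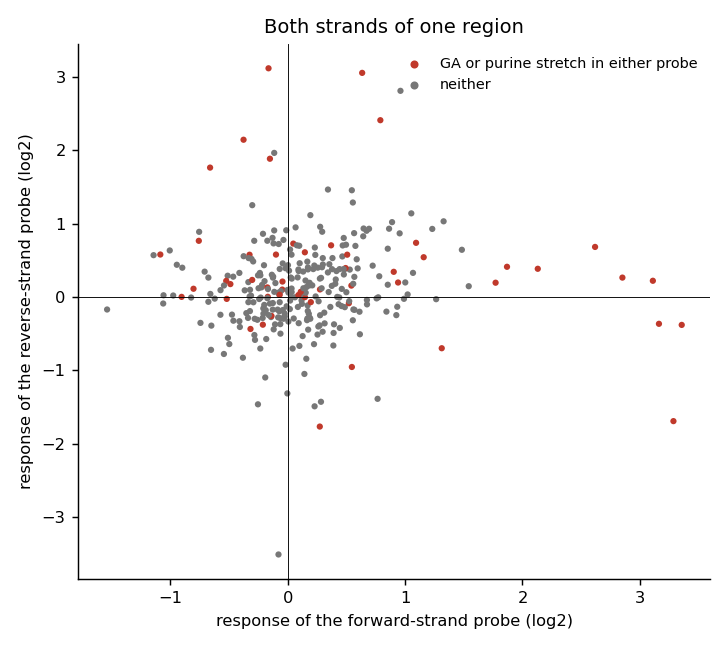
Each point is 1 of the 324 intervals with a member on both strands, with the average response of the F probe on the x axis and of the R probe on the y axis (log2, imiquimod minus untreated). Red points have a GA or purine stretch in either probe and grey points in neither. Each red point above 2 on one axis is at most 0.79 on the other, as in the pair at 3.29 and -1.69.

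Among members with neither a GA stretch of 6 bases nor a purine run of 12, the largest rise was chr8:124355710-124401160_R. Its untreated levels of 2.62 to 3.38 were all below background, and its treated levels of 5.50 to 6.35 were all above it. The rise was at least 3.90-fold, the 5 responses (3.73, 2.69, 2.73, 2.74 and 2.18) were all positive, and the average was 2.81 ± 0.22 (adjusted p 0.0072). The call held under every alternative setting that kept the probe, but the size did not: the response was 0.74 with normexp and 1.18 in the authors' deposited table, both below the bound. The probe (chr8:124397508-124397567) lies 33.4 kb from a probe of Slc7a5 on the same strand. Slc7a5 encodes a large neutral amino acid transporter that is induced in activated lymphocytes, and it rose by 1.03 (adjusted p 0.00876). A shorter R interval inside it, chr8:124397412-124398022_R, rose by 1.53 ± 0.28 (adjusted p 0.0191) on 3 arrays above background, all treated, and the F probe gave 0.96 (adjusted p 0.0636). The response of the shorter interval was 0.24 with normexp and 0.53 in the authors' deposited table. Its call was lost without Tlr7-/- and with the genotypes of 1 slide alone.

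Other large rises of this kind were read well above background on all arrays. The member chr3:34003359-34537330_F, from the longest interval (534 kb), went from 8.52 to 9.74 untreated to 10.87 to 12.66 treated (2.38 ± 0.28, adjusted p 0.0098). It was followed by chr15:90156889-90184564_F (2.32 ± 0.36), chr13:112210279-112212150_R (2.29 ± 0.36) and chr10:116814196-116920696_R (1.97 ± 0.25). These 4 have a purine run of 11 bases, 1 short of the limit used. The next, chr3:58118325-58136550_F, has a run of 9 and read 6.89 ± 0.11 untreated (SD, n = 5) and 7.98 to 9.58 treated (1.87 ± 0.22, adjusted p 0.00968). Its neighbour on the same strand 96.2 kb away, Tsc22d2, a gene of the TSC22 domain family, rose by 0.74 (adjusted p 0.023). In each of these 5 members every treated level lay above every untreated one. The rises from chr4:11102287-11118421_R (1.77), chr7:86651948-86675223_F (1.64), chr9:14480441-14483362_F (1.61) and chr16:30200995-30205965_R (1.61) lost their calls without Tlr9-/-, as did those on chromosomes 15 and 13 above. All of these were ranked with values in view.

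A member beside Socs3 and another beside Neat1 rose without a called change of the named gene. Socs3, a feedback inhibitor of JAK-STAT signalling, lies 8.6 kb from chr11:117835849-117842574_R on the same strand. That member read 7.60, 8.23, 7.96, 8.01 and 8.18 untreated and 9.20 to 9.79 treated, a rise of 1.57 ± 0.17 (adjusted p 0.0093) that held under every alternative, where Socs3 had 0.34 (adjusted p 0.135). A second probe of the same interval stayed near background (-0.06). The members chr11:117792051-117811334_R (-0.08) and chr11:117768049-117807949_R (0.29), also nearest to Socs3 and on its strand, were not called. Neat1, the architectural RNA of paraspeckles, had responses of -0.13 and -0.33 at its own 2 probes. The first of these averaged 1.00, 0.31 and 0.10 in WT, Tlr7-/- and Tlr9-/- with -1.27 and -0.77 in Tlr7-/-Tlr9-/- and Card14-/-. The member chr19:5834117-5835940_R, 9.5 kb from Neat1 on the same strand, rose by 1.79 ± 0.42 (adjusted p 0.0326), with 7.25 to 8.38 untreated, 10.29 to 10.62 in treated WT, Tlr7-/- and Tlr9-/-, and 8.12 to 8.28 on the 4 treated arrays of the other slide. The latter values overlapped the untreated range, and the call was lost without WT, without Tlr7-/- and without Tlr9-/-.

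**Figure D4:**
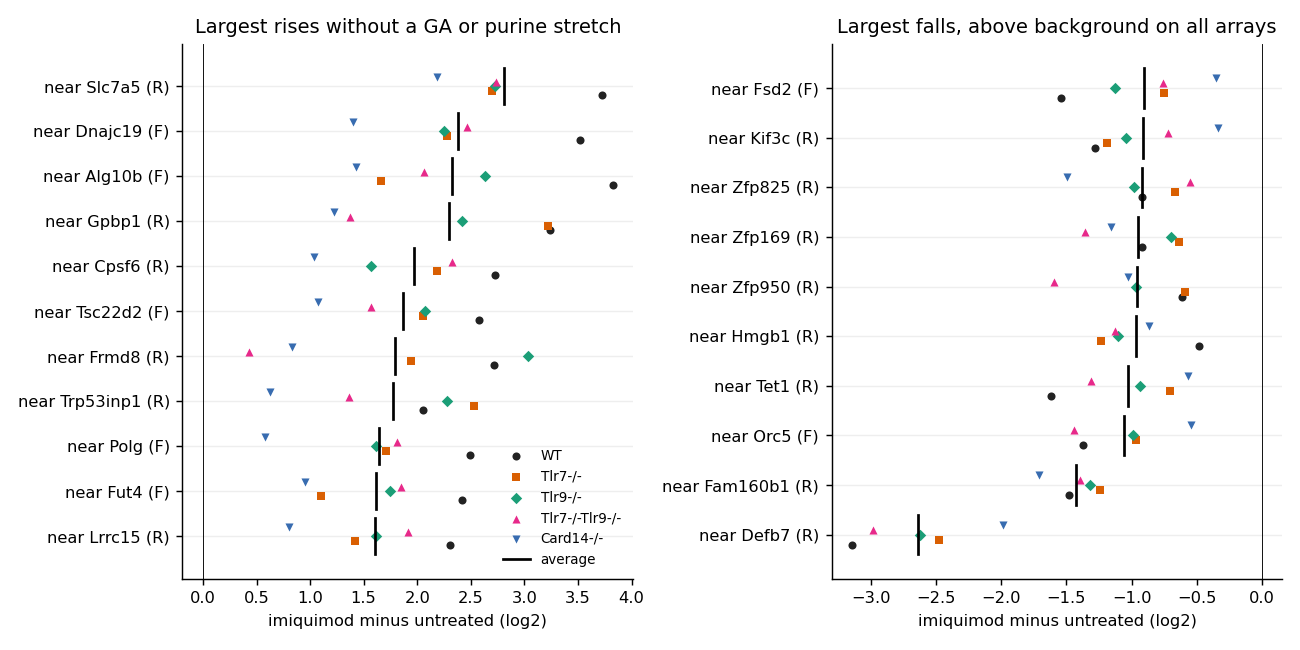
Responses of the largest rises without a GA or purine stretch (left) and of the largest falls among members above background on all 12 arrays (right) are plotted on a log2 scale (imiquimod minus untreated), with 1 symbol per genotype and a black bar for the average. Members are labelled by the nearest protein-coding gene with a probe and by strand. The member near Slc7a5 leads on the left at 2.81 and the one near Defb7 on the right at -2.64, and no symbol crosses 0.

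The falls were fewer and smaller than the rises. The clearest was chr8:19783770-19784669_R, in an interval of 0.9 kb with no named gene within it. It read 8.00, 7.55, 7.82, 8.37 and 8.23 untreated, 4.85, 5.07 and 5.20 in treated WT, Tlr7-/- and Tlr9-/-, and 5.31 to 6.33 in the other treated arrays. The groups were apart by more than 1 log2 unit, the average was -2.64 ± 0.18 (adjusted p 0.00595), and the call held under every alternative. The member chr19:57426515-57435165_R fell from 7.46 to 7.96 to 5.70 to 6.59 (-1.43 ± 0.09, adjusted p 0.00557), again under every alternative. Next were chr5:22058025-22072475_F (-1.06 ± 0.15), whose interval holds the lncRNA 6030443J06Rik (-0.55), and chr10:62267317-62269871_R (-1.03 ± 0.17), which lies 6.7 kb from Tet1 on the same strand. Tet1, which encodes a 5-methylcytosine dioxygenase, fell by 0.83 (adjusted p 0.00881). The remaining 6 of the 10 largest falls read on all arrays were between -0.96 and -0.91. This ranking took called falls with the same sign in all 5 genotypes and no run of at least 20 purines or pyrimidines. It therefore leaves out chr12:77544397-77564122_R (-1.69), which had 0.00 in Tlr7-/-Tlr9-/-.

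The largest measured fall, chr4:35106125-35127700_R at -3.51 ± 0.83 (adjusted p 0.0333), was unequal between slides. Its untreated levels were 8.27 to 10.15, its treated levels were 2.99, 6.21 and 2.87 in WT, Tlr7-/- and Tlr9-/-, and 7.94 to 8.34 in the others. The call was lost without WT, Tlr7-/- or Tlr9-/- and without the signal filter, and the F probe of the interval had -0.08. Among falls to below background on every treated array, chr17:80133213-80144417_F fell at least 2.93-fold (5.43 to 6.22 untreated). Its response was -0.60 with normexp and -0.87 in the authors' deposited table, both smaller than the bound, and its call was lost without Tlr9-/-. It lies 37.7 kb from Cyp1b1, an aryl hydrocarbon receptor target on the opposite strand, which fell by 0.66 (adjusted p 0.0118).

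Intervals that hold the lncRNAs Mir205hg and Crnde also fell. Mir205hg, the host of the epithelial microRNA miR-205, lies in chr1:195327945-195336595_R, which went from 11.27 to 11.70 untreated to 10.43 to 11.24 treated without overlap (-0.70 ± 0.11, adjusted p 0.0139). The shorter interval chr1:195332659-195335997_R fell by 0.43 (adjusted p 0.0207), and the Mir205hg probe had -1.07. The opposite strand, whose probe holds 7 bases of GA and a purine run of 15, rose by 1.31 (adjusted p 0.0169). Crnde, a lncRNA of developing tissues, lies in chr8:94841965-94881130_R, which fell from 7.15 to 7.64 to 6.16 to 6.60 (-0.89 ± 0.14, adjusted p 0.0141), where the Crnde probe had -0.34. Without Tlr9-/- the falls of all these members lost their call. The shorter Mir205hg interval also lost it without WT, Tlr7-/- or Tlr7-/-Tlr9-/-, with the genotypes of 1 slide alone and without pairing by genotype. The rise on the opposite strand lost its call without Tlr7-/- and without Tlr9-/-, and was 0.39 with normexp.

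Across all members, the responses of members and of their neighbours were nearly uncorrelated. Of the members, 1513 had a protein-coding gene with a probe within 50 kb, and the correlation of the average responses across these pairs was 0.03, or 0.06 over the 1382 pairs without a GA or purine stretch. Within 10 kb on the same strand it was 0.14 over 347 pairs. Of the 231 members that rose in this set, the neighbour rose for 25 and fell for 31, and of the 113 that fell, it fell for 21 and rose for 10. Over all probes 10.6% rose and 13.6% fell. These pairs share arrays and some share a neighbour, and the values are descriptions.

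Lists of named genes gave the surrounding context. Of 70 named lncRNAs listed, 52 had a probe kept. Counted at the brightest probe of each gene, 6 rose, 4 fell and 42 were not called, with a median of -0.01, where 10.6% of all probes rose and 13.6% fell. Dimmer probes of 6 genes among the 42 were called: Airn (3.01), Pantr1 (2.28), Snhg7 (0.86), Snhg14 (-0.54), Dleu2 (-0.64) and Mirt1 (-1.51). The noncoding parts of essential RNA enzymes were among the rises: Rpph1, the RNA of ribonuclease P, by 1.504 ± 0.25, Terc, the telomerase RNA, by 1.04 ± 0.10, and Rmrp, the RNA of RNase MRP, by 0.78 ± 0.12. As the labelling favours polyadenylated RNA, whether these values follow the mature RNAs was not tested. The snoRNA host Snhg9 rose by 0.61 and Mir22hg by 0.47. Snhg15 rose by 3.098 at a probe with 12 bases of GA, where its other probe gave 0.35. Airn showed the same split, with 3.01 at a probe with 9 bases of GA and 0.82 and 0.15 at its other 2. Hoxa11os did not rise to this extent: its probe with 8 bases of GA gave 0.72 and was not called, and its other probe gave -0.52. Sox2ot (-1.56), Pantr2 (-0.95), Dnm3os (-0.55) and the snoRNA host Gas5 (-0.30) fell, the first 2 on 6 arrays above background each. The other Gas5 probe, above background on all 12 arrays, gave -0.04 and was not called.

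Of 17 members nearest to an early-response gene, 4 rose and 1 fell, where 10.6% of all probes rose and 13.6% fell. The rises were the Socs3 member above and those near Jun, Dusp1 and Nr4a1, which encode an AP-1 subunit, a MAP kinase phosphatase and an orphan nuclear receptor. The member chr4:94742359-94822969_F was bright, at 15.10 to 15.65 untreated and 16.09 to 16.88 treated (1.05 ± 0.18, adjusted p 0.0168). It lies 106 kb from Jun (0.96, adjusted p 0.0165) and 10.0 kb from the antisense lncRNA Junos (-0.17). Its call was lost without Tlr7-/- and without Tlr9-/-. Members of the enclosing interval chr4:94719930-94825776_F gave -0.12 and, 15.4 kb from Jun, -0.20, and neither was called. The Dusp1 member chr17:26679595-26688270_R rose by 0.68 ± 0.12 beside 0.98 for Dusp1, and the Nr4a1 member chr15:101084597-101095097_F, with a purine run of 13, by 0.49 ± 0.09 beside 1.502 for Nr4a1. Both lost their call without Tlr9-/- and without Tlr7-/-Tlr9-/-. The Nr4a1 member also lost it without Tlr7-/- and with the genotypes of 1 slide alone. The fall, near Nfkbia (-1.54), was read above background on 3 arrays.

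The difference in response between Tlr7-deficient and other genotypes was tested directly, because imiquimod acts on TLR7. No member was called in limma (0 of 2297, and 0 of all probes, a background of 0%), and the smallest adjusted p was 1.00. At an unadjusted p under 0.05 there were 102 members and 1055 probes in all, of which 51 and 555 were negative, that is, lower without Tlr7. With 5 differences the median standard error over the members was 0.34 log2 units, which limits the differences that could be detected.

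Members beside Ifi204 had smaller responses in the Tlr7-deficient genotypes, although none of these differences was called. Ifi204 belongs to the interferon-inducible p200 family of DNA sensors. It was the nearest gene of 8 members, from 4 stranded intervals, 7 on its strand and 1 opposite, and all 8 responded less in the Tlr7-deficient genotypes, 4 of them at an unadjusted p under 0.05. These members share intervals and in part may read one transcript, so they are not independent. The strongest was chr1:175660642-175671878_R, at 9.21, 9.28, 9.38, 9.14 and 9.33 untreated. Its probe 15.02 kb from Ifi204 read 11.98 in treated WT, 10.90 in Tlr9-/- and 10.72 and 10.83 in Card14-/-, against 10.57 in Tlr7-/- and 9.89 and 9.80 in Tlr7-/-Tlr9-/-. The average response was 1.55 ± 0.28 (adjusted p 0.0187) and the Tlr7 difference -0.92 ± 0.49 (unadjusted p 0.116, limma). The other probe of the interval, with 6 bases of GA, gave 1.27 ± 0.22 and a difference of -0.92 ± 0.27 (unadjusted p 0.0178, limma). In all 4 of these members rose, between 0.60 and 1.55, and all 4 calls were lost without Tlr9-/- and 3 of the 4 without Tlr7-/-. The Ifi204 probes themselves had differences of -0.53 and -0.60.

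The member at Rnf213, chr11:119254413-119296960_F, had positive responses in the genotypes with Tlr7 and values near 0 without it, a difference that no test called after adjustment. Rnf213 encodes a large ubiquitin ligase induced by interferon, and the probe (chr11:119296770-119296829) lies on its strand in an interval that holds a probe of it. Its untreated levels were 5.13, 5.37, 4.95, 4.81 and 5.01. Treatment left 7.15 in WT, 6.11 in Tlr9-/- and 6.08 and 6.26 in Card14-/-, but 5.11 in Tlr7-/- and 4.73 and 4.53 in Tlr7-/-Tlr9-/-. The responses were thus 2.02, 1.16 and 1.16 with Tlr7 and -0.26 and -0.18 without it, a difference of -1.66 ± 0.32 (unadjusted p 0.00365, limma). The member was picked for the size of this difference, and the unadjusted p does not account for that choice. The 2 members of the overlapping interval chr11:119250824-119286324 had differences of -0.77 on R and -0.35 on F, with responses of 1.42 and 0.98 in WT.

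Other neighbours of interferon-stimulated genes did not show this. The 5 members near Isg15, a ubiquitin-like modifier that itself had a Tlr7 difference of -2.17, had responses from -0.23 to 0.25 and differences from -0.08 to 0.39. Members near Rtp4 and Trim30a had differences from -0.02 to 0.14. Of the 16 members nearest to a listed interferon-stimulated gene, 4 rose, all near Ifi204, and 1 fell, near Trim30a (-0.30), where 10.6% of all probes rose and 13.6% fell.

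**Figure D5:**
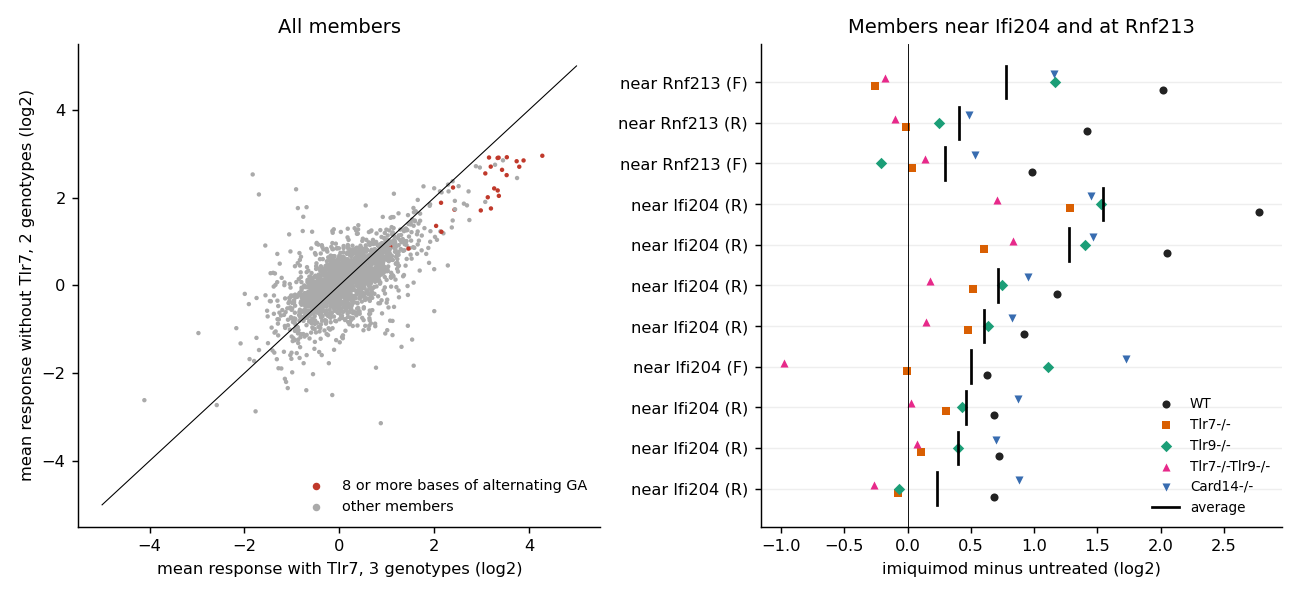
On the left each point is a member, with its mean response in the 3 genotypes with Tlr7 on the x axis and in the 2 without it on the y axis (log2, imiquimod minus untreated). The line marks equality, and red points are the 25 members with at least 8 bases of alternating G and A. On the right are the members near Ifi204 and Rnf213, with 1 symbol per genotype and a bar for the average: the Tlr7-/- and Tlr7-/-Tlr9-/- symbols of the top Rnf213 member sit at -0.26 and -0.18 against 1.16 to 2.02 for the others.

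The most negative Tlr7 differences went with hair follicle genes. The member chr9:56910620-56919667_F had responses of 2.03, -4.94, -1.66, -1.34 and 2.26 in WT, Tlr7-/-, Tlr9-/-, Tlr7-/-Tlr9-/- and Card14-/-, a difference of -4.01 ± 1.65 (unadjusted p 0.0588, limma). It was followed by chr16:13752215-13764390_R at -2.77 ± 1.23 (unadjusted p 0.074, limma). The 6 hair follicle marker genes, all measured, had median responses of 1.39, -5.82, -2.33, -2.82 and 2.12 in the same order, with a median level over the genes between 6.77 and 13.2 across the groups. The part of hair follicle content in these differences was not tested. In bulk skin fewer cells of a type and less RNA per cell cannot be told apart. At the other end chr5:113920850-113950200_R (1.39) rested on the treated Tlr7-/- array, at 8.52 where all others were 5.86 to 6.28. The member chr10:94900849-94928059_R, 30.5 kb from Socs2, had 1.36 ± 0.48 (unadjusted p 0.0377, limma).

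Within single genotypes a call also needed a response of at least 2-fold, and the spread came from the repeat arrays alone. In WT 315 members rose and 146 fell, where 8.74% and 6.84% of all probes did. In Tlr9-/- the counts were 216 and 90 (5.9% and 3.86% of all probes), and in Tlr7-/- 140 and 66 (4.06% and 3.24%). In Tlr7-/-Tlr9-/- they were 166 and 65 (3.26% and 2.24%) and in Card14-/- 80 and 41 (2.54% and 1.24%). Whether the genotypes differ in these counts was not tested. With any 1 of the 4 repeat arrays left out, 0 members were called in Tlr7-/-Tlr9-/- and in Card14-/-, and at most 6 rises and 4 falls in Tlr7-/-, so that the counts rest on very few residual degrees of freedom. The member chr8:19783770-19784669_R was among the largest falls of WT (-3.14), Tlr9-/- (-2.62) and Tlr7-/-Tlr9-/- (-2.98).

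Of the 5 brightest members, 4 were not called. The highest mean level belonged to chr11:22681800-22707775_R, at 17.18 to 17.39 untreated and 17.09 to 17.36 treated (-0.09 ± 0.09). The members chr7:108209996-108216032_R (-0.17), chr17:17481706-17482457_R (-0.21) and chr14:78924115-78938125_F (0.09), all between 16.28 and 17.05 on every array, were the others. The one that rose was chr12:73838608-73862621_F, whose probe is 80% G and C. It went from 15.74 to 16.08 untreated to 16.44 to 16.91 treated (0.78 ± 0.11, adjusted p 0.0117).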

How the data were processed

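RNA of 12 ear skin pools was labelled with Cy3 and hybridized to Agilent arrays. The deposited scanner files hold spot intensities on a linear scale, already background-subtracted by Agilent Feature Extraction (10.7.3.1 per the file headers, 10.5.1.1 per the submitters' processing notes). The authors' deposited table of the same arrays is on a log2 scale, and limma is named in the submitters' processing notes, without a version. It was used only as an alternative.

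The processed intensities were taken to log2 here, spots with an outlier flag were dropped, spots of a probe were averaged, and the arrays were quantile normalized in limma 3.58.1 (R 4.3.3). The fits took in the 37125 probes that 2 or more arrays showed well above background, with Benjamini-Hochberg adjustment over all of them. Counts and plots used pandas 2.3.3 and matplotlib 3.10.9 in Python 3.11.15.

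For the average response, repeat arrays were averaged and the genotype paired the treated with the untreated value (4 residual degrees of freedom). The Tlr7 comparison set the 2 Tlr7-deficient genotypes' response differences against the other 3 (3 residual degrees of freedom). The response in each genotype came from a fit of 10 groups (2 residual degrees of freedom), with a call needing an absolute log2 difference of at least 1. The scripts were tested on simulated data. Precision is limited by the number of arrays.

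Members were named by rules on size of response among called members with the same sign in all genotypes, on long purine runs, on bounds against background, on strand differences, on level, and on nearness to listed genes. A further rule took the lowest and highest Tlr7 differences, called or not. Members and lists were chosen with earlier results of these data known. The GA and shorter purine limits were added after seeing these values. Gene names were updated through RefSeq accessions (33903 probes) or symbols (9946), and gene positions are those of the files. Members without a probe position in the files (38) were placed by their interval.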

Additional observations from a re-analysis of the deposited data

Results flagged for a closer look

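The member chr11:119254413-119296960_F, on the strand of Rnf213, had responses on opposite sides of 0 in the genotypes with and without Tlr7, the negative ones close to 0. The responses were 2.02, 1.16 and 1.16 in WT, Tlr9-/- and Card14-/-, and -0.26 and -0.18 in Tlr7-/- and Tlr7-/-Tlr9-/-. The difference of -1.66 had a standard error of 0.32 and an unadjusted p of 0.00365 in limma, and an adjusted p of 1.00 over all probes. As the member was picked for the size of this difference, the unadjusted p does not account for that choice.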

How the results depend on the processing

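No paired analysis was possible because of the replicate numbers, of which the compared groups share only number 1. The pairing used was by genotype, and without it 425 members rose and 195 fell. Of the 358 rises and 156 falls in the average response, leaving out a genotype or a repeat array left 55 to 360 rises and 18 to 160 falls, the lowest without Tlr9-/-. Scaling to the 75th percentile gave 99 falls, and the fit of all 12 arrays with genotype and slide blocks gave 411. In that fit the responses come from WT, Tlr7-/- and Tlr9-/- alone, as slide and treatment coincide in Tlr7-/-Tlr9-/- and Card14-/-. The count for the Tlr7 comparison was 0 under every setting run, with 51 to 230 members at an unadjusted p under 0.05. Within genotypes, in the order WT, Tlr7-/-, Tlr9-/-, Tlr7-/-Tlr9-/- and Card14-/-, normexp background correction gave 172, 80, 117, 67 and 28 rises and 31, 11, 17, 9 and 16 falls. The authors' deposited table gave 46, 24, 24, 19 and 24 falls, and 90 and 46 rises in the last 2. The 75th percentile scaling gave 73, 38 and 47 falls in the first 3. Requiring all 12 arrays above background gave 80, 28, 39, 28 and 17 falls, and no filter 99 and 74 in the last 2. Leaving out members with a short GA or purine repeat, an alternative added after seeing the data, gave 91 rises in Tlr7-/- and 45 in Card14-/-. Leaving out one repeat array (1 residual degree of freedom) gave 267 to 312 rises and 126 to 151 falls in WT, 0 to 6 and 0 to 4 in Tlr7-/-, 0 to 186 and 0 to 64 in Tlr9-/-, and 0 in the other 2, where 675 to 969 members had an unadjusted p under 0.05 in limma. The median of 2.24 for purine runs of at least 20 was 0.55 with the wider limit of 6 bases of GA or 12 purines, also added later. A run of at least 30 purines occurred in 0 members. The correlation between strands was -0.048 where both probes were above background on all 12 arrays. The cause of these shifts was not tested.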
